A study of Mus musculus with 6 samples.

Results

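The genes that encode NF-κB subunits, IκB proteins and IκB kinases were followed in neutrophils after lipopolysaccharide (LPS), the endotoxin of Gram-negative bacteria. The 9 genes were chosen by symbol from the table of normalized values, which holds 38739 genes, and all 9 had a value above 0 and were among the 23049 genes tested. They comprise 3 subunits (*Nfkb1*, *Rel* and *Relb*), 4 members of the IκB family (*Nfkbia*, *Nfkbib*, *Nfkbid* and *Bcl3*) and 2 kinases (*Ikbkb* and *Ikbke*). *Rela*, *Nfkb2*, *Nfkbie*, *Nfkbiz*, *Chuk* and *Ikbkg* of the same family were not found by symbol in that table, so they could not be analysed here.

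All 6 samples were labelled as neutrophils of cGAS knockout mice of a strain that the labels spell C57B/L6, so each group lacked cyclic GMP-AMP synthase, a sensor of DNA in the cytosol, and no wild-type sample was analysed here. The cells were washed from the peritoneum after thioglycolate injection, and no further purification is described. They were kept in medium for 2 h, either as a media control (untreated, n = 3) or with LPS (n = 3), given as 500 ng/mL in the sample labels, whereas the methods of the study state a lower dose. Nothing in the labels says whether the samples came from separate mice, and the age of the mice is not in the labels, so p-values measure the spread between these samples, which may be technical.

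NF-κB is a family of dimeric transcription factors built from Rel-domain subunits. In resting cells the dimers are held in the cytoplasm by IκB proteins, of which IκBα (*Nfkbia*) and IκBβ (*Nfkbib*) are the classical forms. When Toll-like receptor 4 binds LPS, the IκB kinase complex, whose catalytic subunit IKKβ is encoded by *Ikbkb*, phosphorylates the IκB proteins, which are then degraded, and the freed dimers enter the nucleus. Many genes of the pathway, *Nfkbia* among them, are themselves NF-κB targets, which makes a feedback loop. IκBNS (*Nfkbid*) and Bcl-3 (*Bcl3*) are atypical IκB proteins that work in the nucleus together with p50 dimers, and IKKε (*Ikbke*) is a relative of TBK1 that phosphorylates interferon regulatory factors.

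The sequences before the gene starts are shown because NF-κB binds κB sites there, and because *Nfkbia* is the textbook case of this feedback. RefSeq windows of 250 bases before a start (table of build GRCm38.p6) were found for 6 of the 9 genes, and each was located in GRCm39 by an exact match. The windows were searched on both strands for GGANNTNCC, where N is any base, and for a looser motif of GGG and CC with any 5 bases between them. The *Nfkbia* window lies at chr12:55539433-55539682 on the minus strand, directly before the annotated gene. It is printed 5′ to 3′ with the matches of GGANNTNCC in capitals.
Nfkbia: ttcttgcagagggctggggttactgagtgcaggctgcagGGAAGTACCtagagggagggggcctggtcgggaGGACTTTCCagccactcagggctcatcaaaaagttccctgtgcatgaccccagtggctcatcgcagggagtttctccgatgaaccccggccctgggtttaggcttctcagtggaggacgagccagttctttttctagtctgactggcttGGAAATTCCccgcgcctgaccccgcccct
The match nearest to the start of *Nfkbia* lies 21 to 29 bases before it, and the others lie 170 to 178 and 203 to 211 bases before it.

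In *Rel* and in one of the 3 windows of *Nfkbid* the motif was found in 2 stretches each. These windows lie inside the GENCODE gene, so short pieces around the matches are shown, again with the match in capitals; where matches of both strands overlap, the capitals cover both.
Rel, chr11:23721042-23721071, minus strand: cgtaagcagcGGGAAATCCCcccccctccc
Rel, chr11:23721179-23721207, minus strand: gcgccctcacGGAGCTCCCggcgcgagcg
Nfkbid, chr7:30121595-30121624, plus strand: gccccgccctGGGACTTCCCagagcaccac
Nfkbid, chr7:30121640-30121668, plus strand: gggccgaacaGGAATTCCCcgtgcgcggg
The motif was not found in the windows of *Nfkbib*, *Ikbke* and *Bcl3*. The windows of *Nfkbib* and *Bcl3* also lie wholly inside their annotated genes, and that of *Ikbke* reaches 45 bases into its gene. Of all 32851 windows in the table, 12.2% held GGANNTNCC and 45.8% held the looser motif. Counted by gene, any window held GGANNTNCC in 13.9% and the looser motif in 48.65% of all genes, beside 3 and 4 of the 6 genes here, the fourth with the looser motif being *Bcl3*. These matches are descriptions of letters and not of binding, and the genes with and without them are set beside their values further on.

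The values, called scaled TPM here, were read as transcript-level TPM (a length-corrected share of all transcripts) averaged within each gene and rescaled with 1 factor in each sample. This reading rests on the form of the numbers, checked in untreated replicate 3, since the table itself is named as normalized counts. TPM keeps no record of read number, so sequencing depth is unknown here and the spread between samples is the measure of precision. Levels of different genes cannot be compared, because on this reading the number of transcripts averaged differs between genes. The summed value was 603599 to 713384 in the untreated and 404675 to 465904 in the LPS samples, and protein-coding genes took 21.0 to 28.3% and 49.7 to 58.9% of it. The knocked-out gene itself, *Cgas*, had values of 0.203, 0.307 and 0.180 in the untreated and 0.184, 0.0713 and 0.0286 in the LPS samples. Of the neutrophil markers, 14 of 16 reached at least 1 scaled TPM in some sample, with summed levels of 10503 to 29181 in untreated and 17119 to 53293 in LPS samples; *Elane* was at 0 in all. Markers of other cells were present too. The 6 B cell markers summed to 644 to 2045 untreated and 877 to 3150 after LPS, the 12 macrophage and monocyte markers to 187 to 289 and 322 to 446, most of it *Cd68*, and the 4 erythroid markers to 19.1 to 2696 and 117 to 3074, none of these 3 lists having a marker at 0 in all samples. Of the macrophage and monocyte markers, 3 were lower and 2 higher after LPS without overlap of the groups. T and NK cell markers (8 genes) reached at most 21.6, eosinophil and mast cell markers (7 genes, *Epx* at 0 in all) at most 50.1 and mesothelial markers (3 genes) at most 0.603. In such bulk samples fewer cells of a type and less RNA per cell cannot be told apart, and the part of other cells in the values below was not tested.

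After LPS, *Nfkbib*, *Ikbke*, *Nfkb1* and *Rel* rose past the limits that the study set, a log2 fold change over 2 together with p under 0.01 before adjustment (limma on log2(scaled TPM + 1)). These limits were passed upward by 1.69% and downward by 1.31% of all genes tested, against 4 of the 9 genes upward and 0 downward. With an adjusted p under 0.05 (Benjamini-Hochberg over all genes), passed upward by 0.894% of genes tested, 2 of the 9 remained, *Nfkbib* and *Nfkb1*. By limma, 0 of the 9 genes were lower at an unadjusted p under 0.05, beside 1535 of all 23049 genes tested and 621 of 12018 protein-coding genes. With so small a share over all genes, a count of 0 among 9 sets them little apart. In 6 of the 9 genes each LPS sample lay above each untreated sample, which held for 13.1% of all genes tested. Downward, 0.946% of genes tested had an adjusted p under 0.05 and 9.75% had groups that did not overlap. Among protein-coding genes alone, the upward shares were 2.4% for the limits of the study, 1.25% for the adjusted p and 18.6% for groups apart. The median log2 fold change of the 9 genes was 2.17, beside 0.01 over all genes tested and 0.05 over protein-coding genes. Over protein-coding genes with a mean of at least 1, a level that all 9 genes reach, it was 0.37. When LPS replicate 1 or LPS replicate 3 was left out, 0 of the 9 genes had an adjusted p under 0.05 (1 gene of the whole table was then higher in either fit), and without untreated replicate 3 only *Nfkbib* did.

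**Figure D1:**
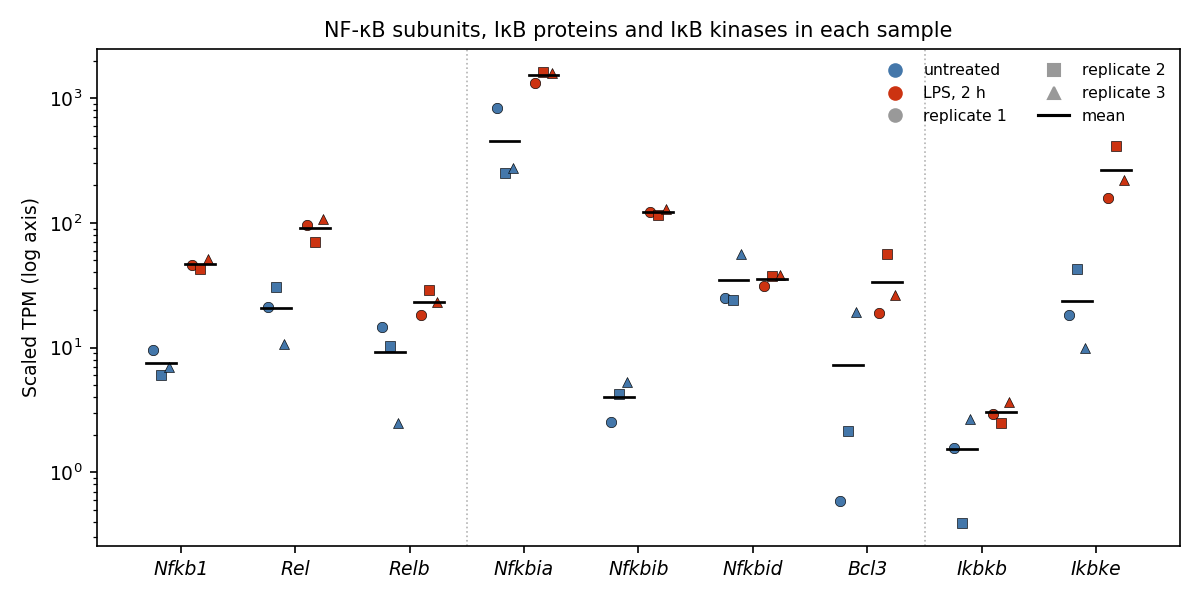
Scaled TPM on a log axis for each of the 9 genes in each of the 6 samples; blue symbols are untreated samples, red symbols LPS samples, symbol shapes mark the replicate number, black lines the group means, and dotted lines part subunits, IκB proteins and kinases. The red symbols lie above all blue ones in 6 genes, and overlap them in *Nfkbid*, *Bcl3* and *Ikbkb*.

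Among the subunits, *Nfkb1* encodes p105, the precursor of the DNA-binding subunit p50, and lies on chromosome 3 (135290264 to 135397742, minus strand, GRCm39). Untreated replicates 1 to 3 were at 9.54, 6.03 and 6.99 scaled TPM, and LPS replicates 1 to 3 at 45.6, 43.0 and 51.1. The groups were far apart and the samples within each were close, with the lowest LPS value well above the highest untreated one. *Nfkb1* rose by 2.50 on the log2 scale (standard error, SE, 0.29, adjusted p = 0.022), and it passed the limits of the study in all 14 alternative settings tried. Its adjusted p by limma ran from 0.0058 to 0.092 over these settings, so it was not under 0.05 in all of them.

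*Rel* encodes c-Rel, a subunit with its own transactivation domain that is abundant in blood cells, on chromosome 11 (23686847 to 23721264, minus strand). Its values were 21.3, 30.7 and 10.6 in the untreated and 97.0, 69.9 and 107.6 in the LPS samples. All LPS samples were above all untreated samples, but the untreated samples differed up to 2.88-fold among themselves. Its log2 fold change of 2.17 (SE 0.45, adjusted p = 0.074) was past the limits of the study in 8 of 14 alternative settings. It fell outside them with a pseudocount of 5 (1.96), with protein-coding scaling, without untreated replicate 1 (2.24, unadjusted p = 0.0101), without untreated replicate 3 (1.78), without LPS replicate 1 (2.12, unadjusted p = 0.0146) and without LPS replicate 3 (2.05, unadjusted p = 0.0157), all by limma.

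*Relb* encodes the subunit of the alternative pathway, which pairs with p52, on chromosome 7 (19339017 to 19363425, minus strand). Untreated values were 14.6, 10.3 and 2.49, and LPS values 18.2, 28.8 and 23.2. The groups did not overlap, yet untreated replicate 3 was much lower than the others. With a fitted change of 1.50 on the log2 scale (SE 0.61, adjusted p = 0.29), the difference did not hold up against this spread.

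Of the classical IκB proteins, *Nfkbib* showed the largest change of the 9 genes. It lies on chromosome 7 (28457486 to 28466937, minus strand) and had values of 2.51, 4.20 and 5.33 without and 123.1, 114.9 and 128.7 with LPS. The mean was 4.01 ± 1.42 untreated and 122.3 ± 6.91 after LPS (SD, n = 3), a 30.5-fold ratio of means. The LPS samples differed by no more than 1.12-fold among themselves. *Nfkbib* rose by 4.66 on the log2 scale (SE 0.32, adjusted p = 0.0057), a change at percentile 99.9 of all genes tested, and the adjusted p ran from 0.0018 to 0.089 over the 14 alternatives. The annotated gene overlaps *Sirt2* on the other strand over 778 bases, and *Sirt2*, a deacetylase gene, was listed at 8.30, 5.46 and 3.68 untreated and at 31.1, 35.9 and 28.0 after LPS. *Ccer2*, which also overlaps on the other strand and is identical to *Nfkbib* transcripts over 316 bases, was at 0 untreated and at most 1.41 after LPS. The libraries were strand-specific, but whether the counting used strand is not given in the sources used here, so reads of the shared parts may be divided between these genes.

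*Nfkbia*, on chromosome 12 (55535332 to 55539432, minus strand), carries the printed sequence with 3 matches before its start. Its untreated values were 834.2, 251.2 and 276.9, and its LPS values 1326, 1626 and 1606. Each LPS sample was above each untreated sample, and untreated replicate 1 stood more than 3-fold above the lowest untreated sample (3.32-fold). A fitted log2 fold change of 1.96 (SE 0.51, adjusted p = 0.12) fell just short of the limit of 2, and *Nfkbia* was not called. Without untreated replicate 1 it was 2.52 with an adjusted p of 0.047 by limma, the lowest adjusted p over its alternatives, of which the highest was 0.35.

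The atypical IκB genes were less uniform. *Nfkbid*, on chromosome 7 (30121150 to 30128171, plus strand), was listed at 25.0, 24.2 and 56.0 untreated and at 30.9, 37.8 and 38.2 after LPS. Its groups overlapped, since untreated replicate 3 was the highest of all 6. The fitted difference was 0.13 on the log2 scale (SE 0.40, adjusted p = 0.88), and its sign changed without untreated replicate 1 or 2 and when the samples were scaled to equal protein-coding sums.

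*Bcl3*, on chromosome 7 (19541553 to 19557570, minus strand), had untreated values of 0.587, 2.14 and 19.2 and LPS values of 19.0, 56.0 and 26.4. Untreated replicate 3 slightly exceeded the lowest LPS sample, and the untreated samples spanned a 32.6-fold range, the widest of the 9 genes. Although larger than that of *Nfkb1*, its log2 fold change of 2.76 (SE 0.99, adjusted p = 0.23) did not pass. Without untreated replicate 3 it was 3.82 and passed the limits of the study, with an adjusted p of 0.082 by limma (range over all alternatives 0.082 to 0.50). A lncRNA gene on the other strand, *Gm16175*, is identical to *Bcl3* transcripts over 202 bases with values of 0 throughout the untreated group and of 1.60, 3.28 and 0 after LPS.

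Of the kinases, *Ikbke*, on chromosome 1 (131182080 to 131207346, minus strand), was listed at 18.3, 42.5 and 9.89 untreated and at 158.6, 411.8 and 219.4 after LPS. The groups were apart, and replicate 2 was the highest in both groups. *Ikbke* rose by 3.55 on the log2 scale (SE 0.62, adjusted p = 0.053), past the limits of the study in all 14 alternatives, with adjusted p from 0.019 to 0.19. The lncRNA gene *Gm28913* lies across 12407 bases of the locus on the other strand and was listed at 0, 5.76 and 88.0 untreated and at 195.9, 464.8 and 296.9 after LPS, with replicate 2 again the highest LPS sample. No stretch of 150 bases or more at 95% identity or more was shared between the transcripts of *Ikbke* and *Gm28913*.

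*Ikbkb*, the kinase of the classical pathway, on chromosome 8 (23148709 to 23196607, minus strand), was low throughout, at 1.57, 0.391 and 2.69 untreated and at 2.92, 2.49 and 3.67 after LPS. The groups overlapped, as untreated replicate 3 exceeded LPS replicate 2. With values this close to the added 1, the log2 scale understates a change, which was fitted as 0.76 (SE 0.44, adjusted p = 0.44). With a pseudocount of 0.1 it stayed outside the limits, as in all 14 alternatives. Its annotated transcripts share stretches with *Sec24a*, *Tmem130*, *Igfbp4* and *Sec14l2* at 95% identity or more, each over 150 to 169 bases, so reads of these stretches cannot be assigned with certainty at so low a level.

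**Figure D2:**
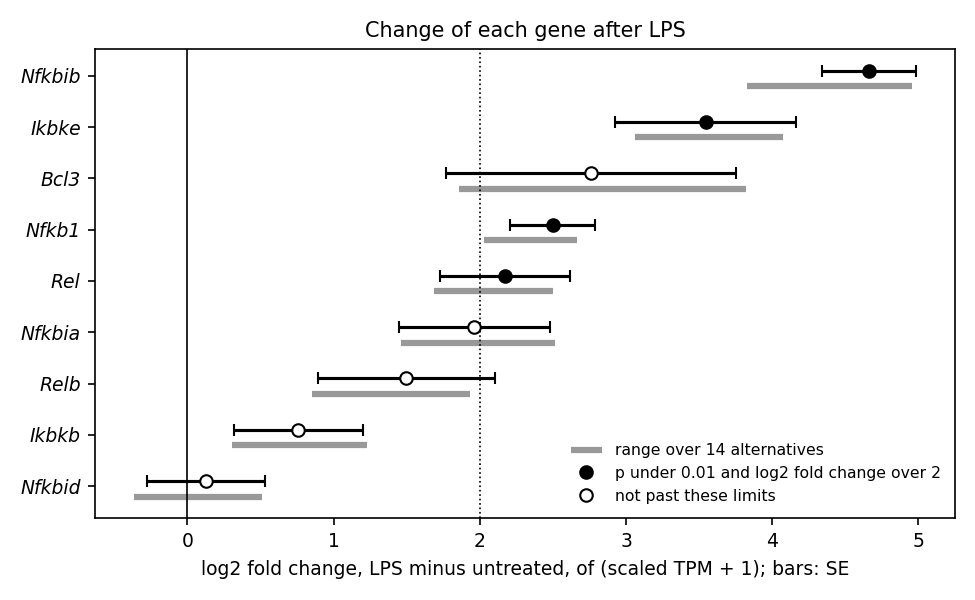
Log2 fold change of each gene (LPS minus untreated, on the log2(scaled TPM + 1) scale) with its standard error as black bars, and the range over 14 alternative settings as grey bars, with a dotted line at 2; filled symbols passed p under 0.01 and a log2 fold change over 2. *Nfkbib* (4.66), *Ikbke* (3.55), *Nfkb1* (2.50) and *Rel* (2.17) are filled, and only the grey bar of *Nfkbid* crosses 0.

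Of the genes with a match of GGANNTNCC in a window, *Rel* passed the limits of the study and *Nfkbia* and *Nfkbid* did not. Of the genes whose windows held no match, *Nfkbib* and *Ikbke* passed and *Bcl3* did not. Genes that rose were thus found both with and without these letters in the window. Of the windows searched, only that of *Nfkbia* lay wholly before its annotated gene.

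Samples spread more without LPS than with it. In all 9 genes the SD of the log2 values was larger in the untreated group, and the same was true of 79.5% of the 9403 genes with a mean of at least 1. Untreated replicate 3 was the highest untreated sample in 4 genes (*Nfkbib*, *Nfkbid*, *Bcl3* and *Ikbkb*) and the lowest in 3 (*Rel*, *Relb* and *Ikbke*). Of the 6 B cell markers, all 6 were lowest in LPS replicate 2 within the LPS group, and 4 were lowest in untreated replicate 2 within the untreated group, the exceptions being *Cd79b* and *Pax5*, which were lowest in untreated replicate 1. LPS replicate 2 was also the lowest LPS sample in 7 of 8 T and NK cell, 7 of 12 macrophage and monocyte and 4 of 4 erythroid markers, but in 2 of 15 neutrophil markers. Without untreated replicate 2 or LPS replicate 2, the same 4 genes passed the limits of the study as with all samples. These fits leave out samples that are low in most B cell markers, so they cannot show the part of other cells, which was not tested.

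Because the protein-coding share of the total differed between groups, the scaling bears on every change. Pseudogenes took 63.5 to 67.9% of the total in the untreated and 31.7 to 38.8% in the LPS samples. The protein-coding sum was higher after LPS by 0.50 on the log2 scale. Scaling the samples to equal protein-coding sums moved the median log2 fold change of genes with a mean of at least 1 from 0.13 to -0.22. For the protein-coding genes among them, the median moved from 0.37 to 0.01. On that scale 3 of the 9 genes passed the limits of the study, *Nfkbib* (4.21), *Ikbke* (3.06) and *Nfkb1* (2.03), while *Rel* was at 1.69, *Bcl3* at 2.34, *Nfkbia* at 1.46, *Relb* at 1.05, *Ikbkb* at 0.41 and *Nfkbid* at -0.36. An adjusted p under 0.05 by limma was then found for *Nfkbib* (0.011) and *Ikbke* (0.044) and no longer for *Nfkb1* (0.056). Across all genes the share of calls that were upward was 56.4% as the authors scaled the values and 29.4% on the protein-coding scale.

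A difference between 2 genes within 1 sample does not depend on how that sample was scaled, apart from the effect of the pseudocount. *Nfkbia* minus *Nfkbib* was 7.89, 5.60 and 5.46 on the log2 scale in the untreated samples and 3.42, 3.81 and 3.63 in the LPS samples. The groups did not overlap, and the difference was smaller after LPS by 2.70 (SE 0.80). Before the addition of 1, the ratio of *Nfkbia* to *Nfkbib* was 332, 59.8 and 52.0 untreated and 10.8, 14.1 and 12.5 after LPS. These are ratios of scaled values and not of molecules.

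*Nfkbid* minus *Bcl3* was 2.85 ± 1.28 untreated and 0.21 ± 0.67 after LPS (SD, n = 3), and its groups were apart both on this scale and as ratios. In the pairs with *Ikbkb* the added 1 mattered, since *Ikbkb* was so low. *Ikbke* minus *Ikbkb* was larger after LPS by 2.79 (SE 1.10) with groups apart, whereas the plain ratio was 11.7, 108.6 and 3.68 untreated and 54.3, 165.6 and 59.8 after LPS, so that untreated replicate 2 lay within the LPS range. *Nfkbia* minus *Ikbkb* was larger by 1.20 (SE 0.63), with the lowest LPS sample (8.40) barely above the highest untreated one (8.35), and here too the ratios overlapped, at 532.2, 642.6 and 103.1 untreated and 453.6, 654.1 and 437.5 after LPS. In the pairs *Nfkb1* minus *Rel* (change 0.33, SE 0.50) and *Nfkb1* minus *Relb* (change 1.00, SE 0.64) the groups overlapped on both scales. Of the 6 pairs compared, 4 were thus apart with 1 added and 2 as plain ratios. An exact permutation test of 3 against 3 samples (two-sided) cannot go below p = 0.10, the value of the 4 pairs that were apart with 1 added. The other p-values were 0.70 and 0.30 by the same exact test, and after adjustment over the 6 pairs the 4 pairs had p = 0.15, so no pair could pass.

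**Figure D3:**
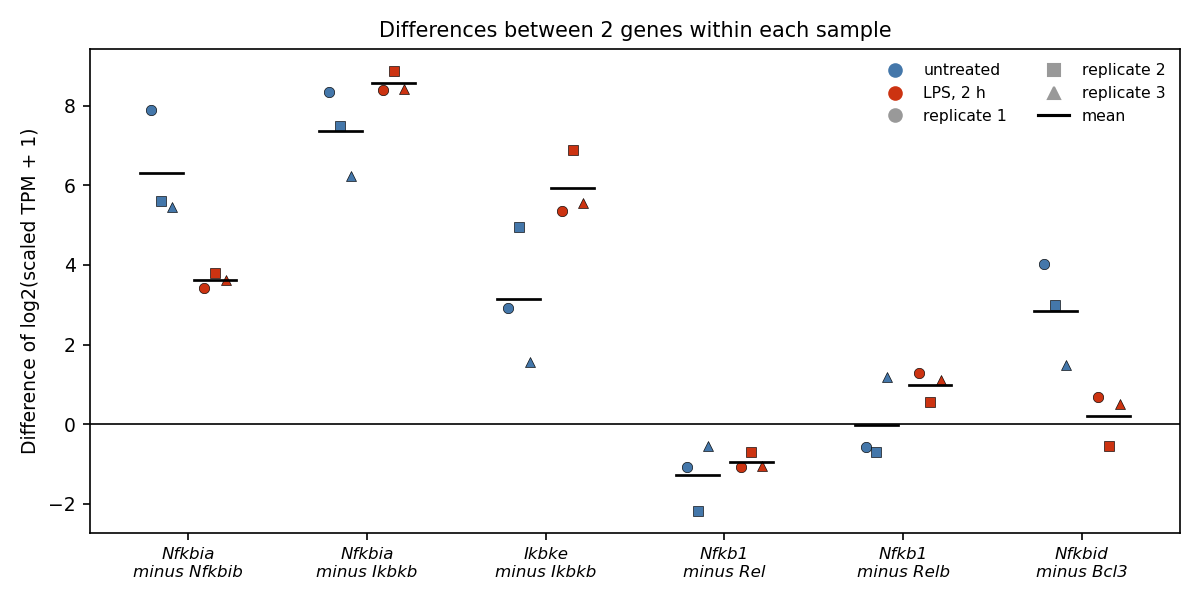
Difference of log2(scaled TPM + 1) between 2 genes within each sample, for the 6 pairs compared; blue symbols are untreated samples, red symbols LPS samples, shapes mark the replicate number and black lines the group means. The differences *Nfkbia* minus *Nfkbib* and *Nfkbid* minus *Bcl3* are lower in all LPS samples, whereas *Ikbke* minus *Ikbkb* is higher on this scale but overlaps as a ratio without the added 1.

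The wider pathway was described with a list of 49 kinases, adaptors and ubiquitin regulators, of which 36 were in the table and tested. Of these 36 genes, 8 passed the limits of the study upward and 1 downward, beside 1.69% and 1.31% of all genes tested. Their median log2 fold change was 1.20, with 26 genes fitted higher and 10 lower. An adjusted p under 0.05 by limma was found for 7 upward and 1 downward, beside 0.894% and 0.946% of all genes. The groups were apart upward in 18 and downward in 4, beside 13.1% and 9.75% of all genes. On the protein-coding scale 5 passed upward. *Ripk2*, the kinase downstream of NOD receptors, had the largest change, from 1.64, 6.70 and 1.17 untreated to 54.5, 67.4 and 53.1 after LPS (log2 fold change 4.06, SE 0.53, adjusted p = 0.029). *Traf1*, a signalling adaptor, rose from 4.15 ± 1.46 to 66.6 ± 8.95 (SD, n = 3). *Tnfaip3*, which encodes the ubiquitin-editing brake A20, was listed at 27.7, 9.49 and 7.81 untreated and at 141.9, 194.3 and 153.3 after LPS (log2 fold change 3.56, adjusted p = 0.035).

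The further genes that rose with an adjusted p under 0.05 were *Zc3h12a* (log2 fold change 3.04), the endonuclease Regnase-1 that degrades inflammatory mRNA, the kinase genes *Tbk1* (2.75) and *Map3k7* (2.25, encoding TAK1), and *Irak3* (2.12), a negative regulator of Toll-like receptor signalling. *Card9*, an adaptor of C-type lectin receptors, fell without overlap of the groups, from 19.5, 37.3 and 35.0 to 1.74, 3.74 and 1.73 (log2 fold change -3.21, SE 0.41, adjusted p = 0.026). *Tlr4* and *Myd88*, the LPS receptor and its adaptor, are named after their values were seen. *Tlr4* was listed at 7.30, 22.3 and 5.42 untreated and at 6.41, 8.57 and 5.44 after LPS, and *Myd88* at 51.4, 43.1 and 74.4 and at 46.7, 62.4 and 60.6, so the groups overlapped in both.

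A list of 55 target genes of NF-κB had 45 genes in the table and 44 tested, *Ccl20* being listed at 0 in all samples. Of the 44, 16 passed the limits of the study upward and 0 downward, beside 1.69% and 1.31% of all genes tested. By limma, 0 were lower at an unadjusted p under 0.05, beside 1535 of all 23049 genes tested. Upward, 10 had an adjusted p under 0.05 by limma, beside 0.894% of all genes. Their median log2 fold change was 1.88, and in 26 of 44 each LPS sample lay above each untreated one, beside 13.1% of all genes. The largest changes with an adjusted p under 0.05 were in the chemokine genes *Cxcl3* (log2 fold change 5.57) and *Cxcl1* (4.90), in *Ptgs2* (4.33), in *Icam1* (4.20), in the inflammasome sensor gene *Nlrp3* (3.76) and in *Csf3* (3.68, encoding the growth factor G-CSF, listed at 0 in untreated replicate 3). The smallest were in *Junb* (2.53), an AP-1 subunit, and *Gadd45b* (2.22), a stress-response gene. *Icam1*, the adhesion molecule, rose from 16.3, 24.8 and 18.1 to 337.0, 336.1 and 467.3. In the list 39 genes had a higher and 5 a lower fitted mean after LPS, and 28 of the 44 did not pass the limits.

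**Figure D4:**
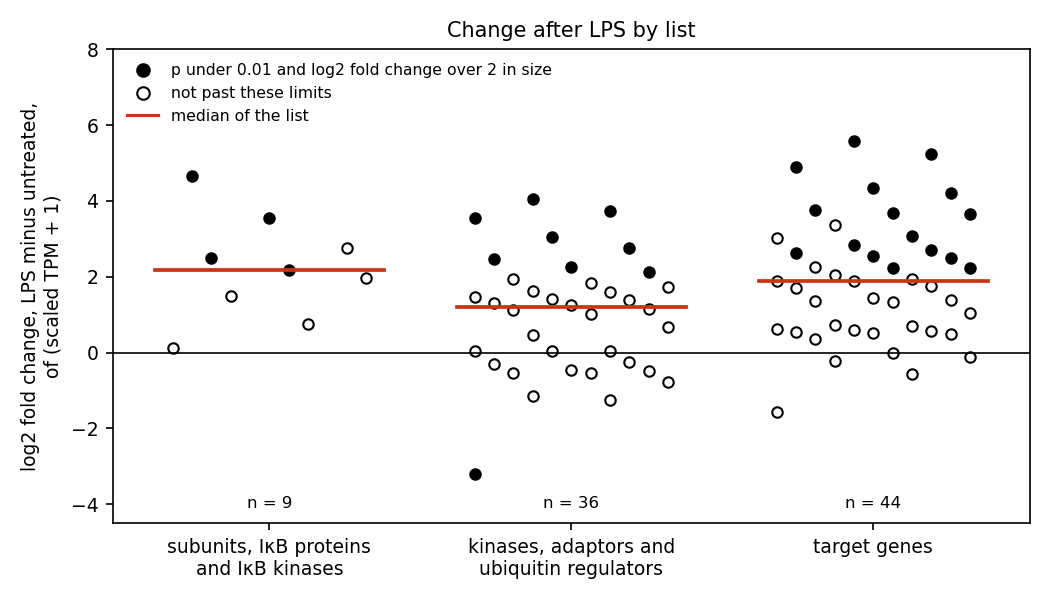
Log2 fold change (LPS minus untreated, log2(scaled TPM + 1) scale) of the 9 genes, of 36 kinases, adaptors and ubiquitin regulators, and of 44 target genes; filled symbols passed p under 0.01 and a log2 fold change over 2 in size, and red lines are the medians (2.17, 1.20 and 1.88). The filled symbol below 0 is *Card9*.

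The gene with the highest listed mean in each of the 3 classes was taken for a search of similar patterns, a rule for choosing and not a comparison of levels. The 3 protein-coding genes with the most similar pattern were found among 2795 genes with a mean of at least 5, by Pearson's r of the log2 values over the 6 samples, which carry the difference between groups. For *Rel* these were *Ppp1r15a* (r = 0.994), *Ptgs2* (0.990) and *Rassf4* (0.987). *Ptgs2*, which encodes the inducible cyclooxygenase, shared the low value of *Rel* in untreated replicate 3, at 10.6, 12.1 and 1.92 untreated and 229.5, 86.6 and 178.2 after LPS. For *Nfkbia* they were *Clp1* (0.992), *Plbd2* (0.991) and *Ppp4c* (0.990), each with its highest untreated value in replicate 1. For *Ikbke* they were *Hipk3* (0.997), *Tm9sf4* (0.996) and *Ksr1* (0.996), each highest in replicate 2 of both groups. With 6 samples in 2 groups such values are descriptions only.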

How the data were processed

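RNA of 3 untreated and 3 LPS samples was sequenced by the authors, who used fastp, STAR and Kallisto with GRCm39 (mm10 is also named in the submitters' processing notes) and normalized with edgeR; versions and the annotation release are not given in the sources used here. The deposited table, named as normalized counts, was read as transcript-level TPM, averaged within each gene by the authors and rescaled with a factor in each sample. In untreated replicate 3 51.4% of values above 0 had at most 6 digits, as Kallisto writes them. Of 1377 longer values there, 68.0% returned to at most 7 digits after multiplication by a whole number from 2 to 30, against 0.1% after a small random shift. For *Bcl3* this number was 3. For each gene not at 0 throughout, log2(value + 1) of all 6 samples was fitted without covariates (limma 3.58.1, R 4.3.3, eBayes with trend, two-sided), with Benjamini-Hochberg adjustment over 23049 genes. The limits of the study were a log2 fold change over 2 in size and p under 0.01 before adjustment.

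The 9 genes and the lists were chosen with earlier results of these data known. Named from each list were genes with an adjusted p under 0.05, up to the 6 largest and 2 smallest changes, and the text marks any other as chosen later. Locations and overlaps come from GENCODE M39 (GRCm39), matched by symbol for 9 of 9 genes. Shared stretches were found with blastn 2.17.0 (at least 95% identity over 150 bases). Sequences come from RefSeq. Protein sequences were not analysed here. Alternatives were pseudocounts of 0.1 and 5, a filter on the mean, 3 other scalings, eBayes without a trend, the replicate number as a block, and leaving out each sample. Tables and plots were made in Python 3.11.15 (pandas 2.3.3, matplotlib 3.10.9) and permutation tests with scipy 1.17.1.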

Additional observations from a re-analysis of the deposited data

How the results depend on the processing

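Over the 14 alternatives, 3 to 5 of the 9 genes passed the limits of the study, and 0 were lower. *Nfkb1*, *Nfkbib* and *Ikbke* were called in every one. The number with an adjusted p under 0.05 was 2, and became 5 when only genes with a mean of at least 1 were tested, 0 with the replicate block, and 0 to 3 as each sample was left out. Over all genes the upward calls at this limit moved too. They were 206 of 23049 in the main fit, 557 of 9403 with the filter on the mean and 1 of 23049 with the block. The deviations of equally numbered samples correlated weakly (r = 0.102, 0.220 and 0.093, each the best match of its number). Unequal numbers gave r from -0.151 to 0.066. These values do not settle whether equal numbers are pairs, and the main fit did not treat them as pairs. The block left the same 4 genes past the limits of the study. *Nfkbid* turned to -0.36 with protein-coding scaling, and to between -0.079 and 0.51 as each sample was left out (-0.054 and -0.079 without untreated replicates 1 and 2). Regulators past the limits numbered 5 instead of 8 with protein-coding scaling.

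Across all genes, 389 were higher and 301 lower past the limits of the study. These became 856 and 493 with a pseudocount of 0.1, 129 and 168 with a pseudocount of 5, and 216 and 519 with protein-coding scaling. Leaving out each sample gave 238 to 434 higher and 241 to 375 lower. At an adjusted p under 0.05, 206 were higher and 218 lower. These became 557 and 483 with the filter on the mean, 119 and 390 with protein-coding scaling, 687 and 611 without a trend, and 1 and 15 with the replicate block, and ranged from 1 to 230 and from 7 to 256 as each sample was left out. The cause of these shifts was not tested. Read depth is unknown, so no lowest detectable level can be given.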
